A study of Homo sapiens with 30 samples.

Results

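The HOX genes are homeobox transcription factor genes that lie in 4 clusters, HOXA to HOXD. Members were all genes of the deposited count tables whose symbol is HOXA, HOXB, HOXC or HOXD followed by a number, which leaves out the antisense and other noncoding RNAs of the clusters. There were 39 of them among the 58908 gene IDs of both tables. The table of the first experiment held all 39, as 11 HOXA, 10 HOXB, 9 HOXC and 9 HOXD genes, with HOXC5 listed under 2 IDs that were both at 0. The table of the second experiment held 26, as 11 HOXA, 7 HOXB, 2 HOXC and 6 HOXD genes.

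All 30 libraries came from UMUC1, a human bladder cancer cell line whose own UTX gene (KDM6A, a histone demethylase) carries a loss-of-function mutation, so every control group lacked working UTX as well. In the first experiment the cells carried a pSIN-puro vector with wild type UTX (UTX cells), with UTX changed at H1146A and E1148A in its catalytic domain (HEAA cells), or with no insert (EV cells). Each was grown in sphere medium, which is serum-free MEM with EGF and FGF2, each at 20 ng/ml, and B27 lacking vitamin A, or in full medium, which is MEM with 10% FBS, and was collected at day 3. In the second experiment cells in full medium carried FGFR3 S249C, an activated form of this receptor, or wild type FGFR3, each from pBabe-puro, together with a pCDH-blasticidin vector that held UTX or nothing. Each of the 10 groups had 3 libraries. The experiments differ in vector and in library kit, so effects of these cannot be told apart from other differences between the experiments. The vectors express UTX and FGFR3 in a single cell line, and the labels do not say that replicates were separate cultures, so the p-values measure the spread between these libraries, which may be technical.

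HOX proteins bind DNA and pattern the embryo along its main axis. Genes at one end of a cluster, with low paralog numbers, are used in anterior regions and respond to retinoids, and genes at the other end, with high numbers, are used in posterior regions, limbs and the urogenital tract. Polycomb complexes hold the clusters silent, and UTX removes a repressive histone methyl mark that they lay down. On GRCh38, by the GENCODE v29 annotation, HOXA2 to HOXA13 span chr7:27100354-27200106, HOXB spans chr17:48528526-48729178, HOXC chr12:53938765-54056030 and HOXD chr2:176092891-176190907. Paralog groups 1 to 3 are called anterior here, 4 to 8 central and 9 to 13 posterior.

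Promoters are shown for 4 members that differed between the media in the same direction in UTX, HEAA and EV cells: HOXA2 and HOXA6, which were lower in sphere medium, and HOXA11 and HOXD11, which were higher. The HOXA6 call was less stable, lost in 4 of 10 alternative fits in UTX cells and 8 of 10 in HEAA cells. The sequences are the 250 bases before the RefSeq start on GRCh38.p14, read 5′ to 3′ on the strand of the gene, and capitals mark matches to the motifs named after them. HOXA2 is at chr7:27102684-27102933 on the minus strand, HOXA6 at chr7:27147775-27148024 on the minus strand, HOXA11 at chr7:27185233-27185482 on the minus strand and HOXD11 at chr2:176107030-176107279 on the plus strand.
HOXA2: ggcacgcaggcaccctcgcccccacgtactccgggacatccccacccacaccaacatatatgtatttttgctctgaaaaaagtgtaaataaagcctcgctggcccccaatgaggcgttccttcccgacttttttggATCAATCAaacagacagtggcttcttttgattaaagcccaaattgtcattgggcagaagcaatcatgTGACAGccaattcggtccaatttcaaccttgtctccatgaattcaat
HOXA6: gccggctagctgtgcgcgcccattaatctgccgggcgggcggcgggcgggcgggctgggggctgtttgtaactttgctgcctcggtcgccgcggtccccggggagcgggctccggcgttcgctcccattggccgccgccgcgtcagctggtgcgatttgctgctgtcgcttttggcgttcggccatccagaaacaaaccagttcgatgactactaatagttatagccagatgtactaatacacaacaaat
HOXA11: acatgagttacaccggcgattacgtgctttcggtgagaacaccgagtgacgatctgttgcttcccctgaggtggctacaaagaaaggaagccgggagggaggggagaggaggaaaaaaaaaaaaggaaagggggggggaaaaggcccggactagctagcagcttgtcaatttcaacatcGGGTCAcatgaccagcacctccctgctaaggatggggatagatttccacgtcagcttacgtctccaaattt
HOXD11: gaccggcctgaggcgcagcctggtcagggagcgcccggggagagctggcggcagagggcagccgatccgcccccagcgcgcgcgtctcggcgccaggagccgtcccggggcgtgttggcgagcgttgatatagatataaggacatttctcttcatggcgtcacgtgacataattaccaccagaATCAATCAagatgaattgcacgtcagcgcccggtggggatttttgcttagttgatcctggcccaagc
The motifs, searched on both strands, were AGGTCA and GGGTCA (retinoid receptor half-sites), TGACAG (bound by MEIS and PKNOX proteins), TGATNNAT (bound by PBX with HOX) and TATAAA. RefSeq held 27 promoters of 20 HOX genes. AGGTCA was in none of these 27, against 12.1% of all 35114 promoters. GGGTCA was in 3 against 12.1%, TGACAG in 2 against 13.03%, TGATNNAT in 3 against 6.47%, and TATAAA in 5 against 10.7%. The same TGATNNAT match, at bases 137 to 144 of HOXA2 and 184 to 191 of HOXD11, stands before one gene that was lower and one that was higher in sphere medium. HOXA2 also has TGACAG at bases 204 to 209, HOXA11 has GGGTCA at 180 to 185, and HOXA6 has no match. The median number of CG dinucleotides was 19 in the HOX promoters and 11 in all promoters, and it was 8 in HOXA2, 27 in HOXA6, 11 in HOXA11 and 23 in HOXD11.

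The deposited counts summed to between 23749352 and 40111234 per library in the first experiment and between 21672408 and 28290664 in the second. Levels are CPM, which are counts scaled to library size within each experiment, so levels of the 2 experiments are not compared. KDM6A, the check of the labels, had 849 to 878 CPM in UTX cells and 926 to 957 CPM in HEAA cells in sphere medium. In full medium it had 568 to 593 CPM in UTX cells and 687 to 702 CPM in HEAA cells. The EV libraries of the first experiment had 7.71 to 17.9 CPM. KDM6A was thus higher in HEAA than in UTX cells in each medium, and higher in sphere than in full medium with either construct. The part of these levels in the HOX differences was not tested. In the second experiment KDM6A had 700 to 946 CPM with UTX and 10.1 to 17.0 CPM without. Epithelial markers were present in all libraries, with KRT18 at 592 CPM or more and TP63 at 75.9 CPM or more, and the leukocyte marker PTPRC did not pass 0.595 CPM, the endothelial CDH5 0.322 and the fibroblast DCN 0.157. Other markers of these lists were higher, with up to 2.89 CPM of CD14, 2.09 of CD3E, 2.86 of PECAM1, 1.82 of VWF and 22.9 of COL1A1. In bulk samples fewer cells of a type and less RNA per cell cannot be told apart. No 2 libraries were alike within sampling noise. Replicate 2 of EV cells in sphere medium, replicate 1 of EV cells with FGFR3 S249C and replicate 3 of UTX cells with FGFR3 S249C stood farther from their group than the others. Some of the results that rest on them, but not all, are given without them too.

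Of the 39 HOX genes, 23 reached a group mean of 1 CPM in at least 1 of the 10 groups, and 16 did not. The 23 comprised all 11 HOXA genes, HOXB3 to HOXB7, HOXB9 and HOXB13, HOXC13 alone of the HOXC genes, and HOXD8 to HOXD11. HOX counts together made up between 0.0246% and 0.0314% of a library. HOXB1, HOXB2 and HOXB8 had 40, 29 and 19 counts summed over the 18 libraries of the first experiment. HOXC5, HOXC10 and HOXC11 had no count, which allows up to 0.0056 CPM (3 counts over the 18 libraries, counting error only), and HOXC4, HOXC6, HOXC8 and HOXC12 had 2 to 24 counts. HOXD1, HOXD3, HOXD12 and HOXD13 had 17 to 60 counts. After the filter on low counts 25 of the 39 were tested in the first experiment, and the 14 left out had at most 8 counts in any library. All 26 listed members were tested in the second experiment, whose table held 20073 of the IDs.

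Levels of different genes are compared per kb of exon. HOXA9, a regulator of blood stem cells and of acute leukaemia, was the highest HOX gene in all 10 groups, with group means between 27.6 CPM per kb in HEAA cells in full medium and 44.5 CPM per kb in EV cells in sphere medium. HOXA7, HOXA10, HOXA11 and HOXB7 followed in every group, between 6.29 and 15.4 CPM per kb. Along the HOXB cluster in EV cells in full medium, HOXB7 had 12.1 ± 0.679 CPM per kb (SD, n = 3), and HOXB6 and HOXB9 had 0.706 ± 0.0957 and 0.321 ± 0.0936 CPM per kb. HOXB8, next after HOXB7 in paralog order, was not tested, with 19 counts over the 18 libraries of the first experiment. In EV cells in full medium HOXB3 had 0.889 ± 0.0410 and HOXB4 0.805 ± 0.0626 CPM per kb, a difference smaller than the sum of their SDs. Along HOXD, HOXD10 had 3.37 ± 0.160 CPM per kb, HOXD8 1.52 ± 0.0608, HOXD9 1.47 ± 0.166 and HOXD11 1.19 ± 0.249. HOXD8 and HOXD9 did not differ beyond their spread, and HOXD4 was at 0.183 ± 0.0822 CPM per kb. In the same libraries HOXA7, a central gene, had 10.4 ± 0.484 CPM per kb, close to HOXA10 at 10.4 ± 0.152, and the posterior HOXA13 had 0.536 ± 0.0547, so the level did not follow the class.

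**Figure D1:**
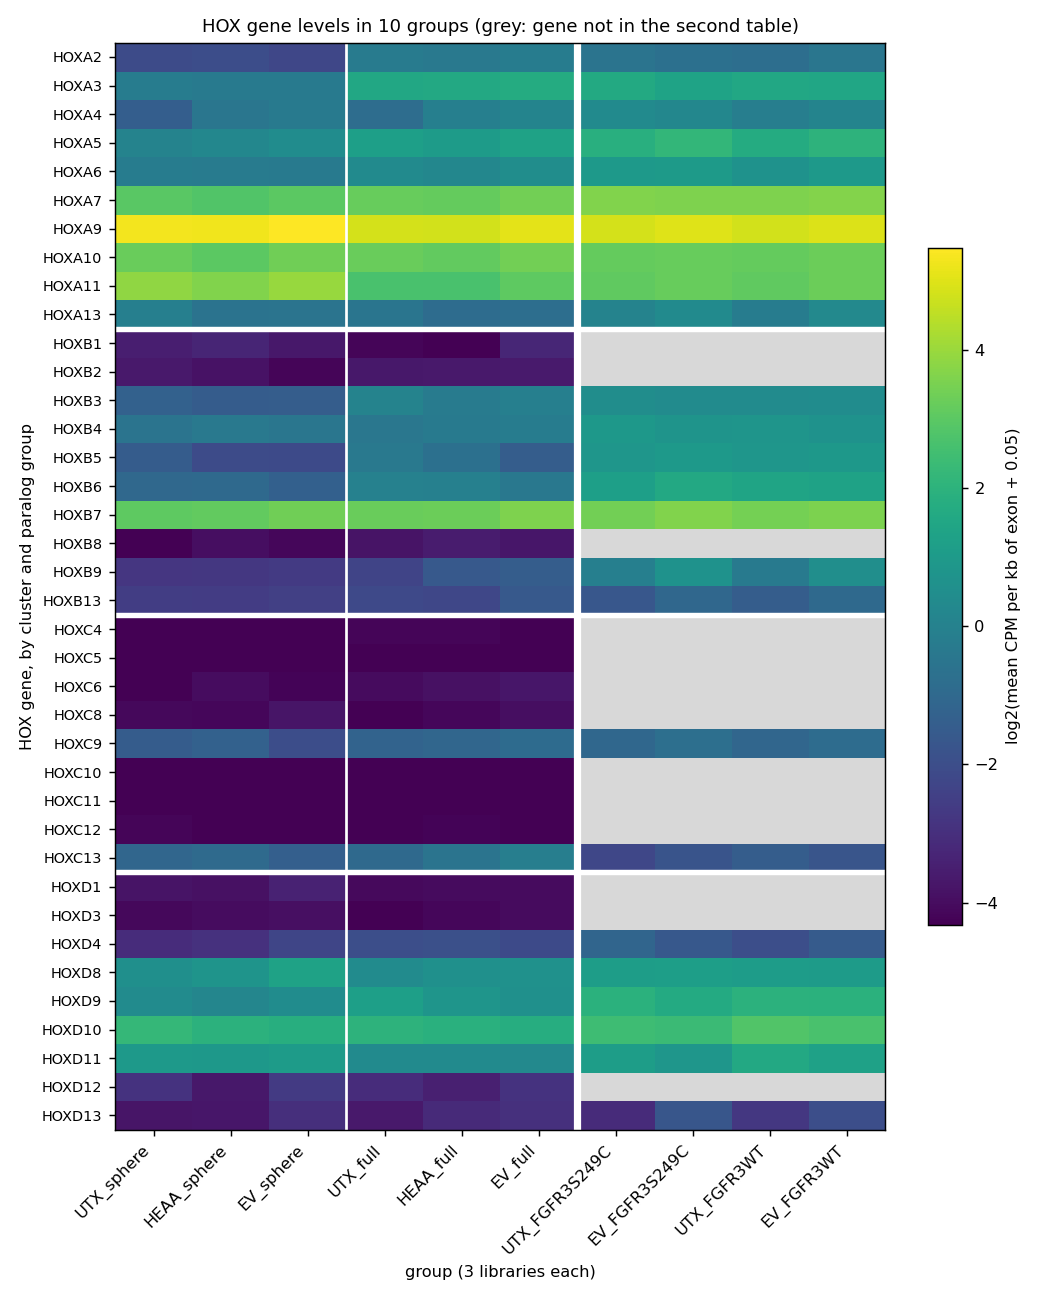
Mean level of 38 HOX genes (rows, by cluster and paralog group) in the 10 groups (columns, 3 libraries each) as log2 of CPM per kb of exon plus 0.05, with grey where the second table does not list the gene and levels scaled apart in the 2 experiments. HOXA9 is the brightest row in all 10 groups, and most HOXC rows are dark.

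In sphere against full medium HOXA2, HOXA3 and HOXB3 at the anterior end of their clusters were lower with every construct, while the posterior HOXA9, HOXA11 and HOXD11 were higher and other posterior genes were called in both directions. In EV cells 4 of the 25 tested members were higher in sphere medium and 14 were lower, where 65.5% of all 19629 genes tested passed the threshold in either direction, 33.1% higher and 32.4% lower. In UTX cells 5 were higher and 10 lower, where 70.5% of all genes were called, 35.1% higher and 35.4% lower. In HEAA cells 3 were higher and 14 lower, where 70.8% were called, 34.4% higher and 36.3% lower. The median log2 fold change was -0.40 over the HOX genes and -0.03 over all genes in EV cells, -0.28 and -0.06 in UTX cells, and -0.38 and -0.07 in HEAA cells. Calls are at an adjusted p under 0.05 in edgeR's quasi-likelihood test, and the 3 constructs share no libraries. HOXA2, HOXA3, HOXA5, HOXA6, HOXA7, HOXB3, HOXB5 and HOXB6 were lower in sphere medium with all 3 constructs, 8 of 25 members against 23.0% of all genes. HOXA9, HOXA11 and HOXD11 were higher with all 3, 3 of 25 members against 25.7% of all genes. Of these calls, that of HOXA6 was lost in 4 of 10 alternatives in UTX cells (adjusted p from 0.00628 to 0.169) and 8 of 10 in HEAA cells (0.0264 to 0.181), and that of HOXB5 in 6 of 10 in EV cells (0.00141 to 0.187). The other members named here kept theirs in all 10 alternatives with each construct.

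Among the anterior genes, HOXA2, which patterns the hindbrain and pharyngeal arches, had 0.557, 0.384 and 0.430 CPM in UTX cells in sphere medium, against 1.83, 2.19 and 1.85 CPM in UTX cells in full medium. In EV cells it had 0.334, 0.418 and 0.453 CPM in sphere medium, against 2.48, 1.88 and 1.71 CPM in full medium. The groups did not overlap, every sphere library was below every full-medium library, and the log2 fold change was -2.08 ± 0.23 (SE, adjusted p = 4.47e-08) in UTX cells, -1.89 ± 0.22 (9.51e-08) in HEAA cells and -2.31 ± 0.22 (5.65e-09) in EV cells. HOXA2 has no annotated exon of another gene over its own exons.

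HOXA3, needed for the thymus and parathyroid, had 3.06, 4.10 and 3.40 CPM in UTX cells in sphere medium, against 12.1, 11.7 and 13.04 CPM in UTX cells in full medium. In EV cells it had 3.34, 3.38 and 3.08 CPM in sphere medium, against 13.4, 14.5 and 13.5 CPM in full medium. Every sphere library was below every full-medium library, and the log2 fold change was -1.81 ± 0.10 (adjusted p = 6.69e-13) in UTX cells, -1.93 ± 0.10 (1.09e-13) in HEAA cells and -2.08 ± 0.10 (2.45e-14) in EV cells. Its paralog HOXB3 had 2.31, 2.65 and 3.05 CPM in UTX cells in sphere medium, against 7.03, 7.16 and 7.92 CPM in UTX cells in full medium, a log2 fold change of -1.47 ± 0.12 (6.43e-10). In EV cells HOXB3 had 2.20, 2.61 and 2.30 CPM in sphere medium, against 6.91, 6.68 and 6.30 CPM in full medium, a log2 fold change of -1.48 ± 0.12 (4.61e-10). Both genes overlap antisense exons, HOXA3 those of HOXA-AS2 and HOXA-AS3 and HOXB3 those of HOXB-AS1 and HOXB-AS3, and reads of the 2 strands cannot be assigned from the sources used here. HOXB3 also shares exon bases on its own strand with HOXB4 and HOXB6, so these members may not be measured independently.

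Of the central genes, HOXA5, a regulator of lung and skeletal patterning, HOXA6 and HOXA7 were lower in sphere medium with all 3 constructs. HOXA5 had 1.47, 1.67 and 1.94 CPM in UTX cells in sphere medium, against 3.55, 4.73 and 3.30 CPM in full medium, a log2 fold change of -1.18 ± 0.17 (adjusted p = 2.59e-06). In EV cells its log2 fold change was -0.91 ± 0.16 (2.43e-05), and HOXA6 and HOXA7 fell by 0.80 and 0.36 on the log2 scale there. HOXB6 had 0.915, 1.11 and 1.46 CPM in UTX cells in sphere medium, against 1.95, 2.47 and 2.83 CPM in full medium, a log2 fold change of -1.05 ± 0.25 (0.000798), with groups that did not overlap. HOXB5 had log2 fold changes of -1.26 ± 0.30 in UTX cells, -1.51 ± 0.32 in HEAA cells and -0.83 ± 0.34 in EV cells. In EV cells 1 sphere library, replicate 1, had 0.634 CPM of HOXB5, inside the full-medium range of 0.528 to 0.769 CPM. Without replicate 2 of EV cells in sphere medium, the HOXB5 value in EV cells was -0.55 with an adjusted p of 0.187. On the opposite strand HOXA6 and HOXA7 overlap exons of HOXA-AS3, and HOXB5 and HOXB6 those of HOXB-AS3.

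Of the posterior HOXA genes, HOXA9 and HOXA11 were higher in sphere medium with all 3 constructs. HOXA11, used in limb, kidney and uterus, had 31.9, 34.8 and 32.8 CPM in UTX cells in sphere medium, against 15.1, 14.7 and 13.7 CPM in UTX cells in full medium, a log2 fold change of 1.19 ± 0.06 (adjusted p = 3.31e-13). In EV cells it had 38.4, 31.9 and 36.6 CPM in sphere medium, against 18.03, 19.9 and 18.8 CPM in full medium, a log2 fold change of 0.91 ± 0.06 (9.25e-12). The lowest sphere library was above the highest full-medium library with each construct. HOXA9 had 120, 117 and 122 CPM in UTX cells in sphere medium, against 88.1, 89.8 and 85.6 CPM in full medium, and rose by 0.45 ± 0.03 on the log2 scale, against 0.48 ± 0.03 in HEAA cells and 0.41 ± 0.03 in EV cells. HOXA10, which acts in the uterus, lay between these risers and did not follow them: its log2 fold changes were 0.00 in UTX cells and -0.04 in EV cells, neither past the threshold, and -0.13 ± 0.06 (0.0416) in HEAA cells, a call lost in 8 of 10 alternatives (adjusted p from 0.0388 to 0.520). HOXA11 overlaps HOXA11-AS on the opposite strand, and HOXA9 and HOXA10 overlap HOXA10-AS.

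**Figure D2:**
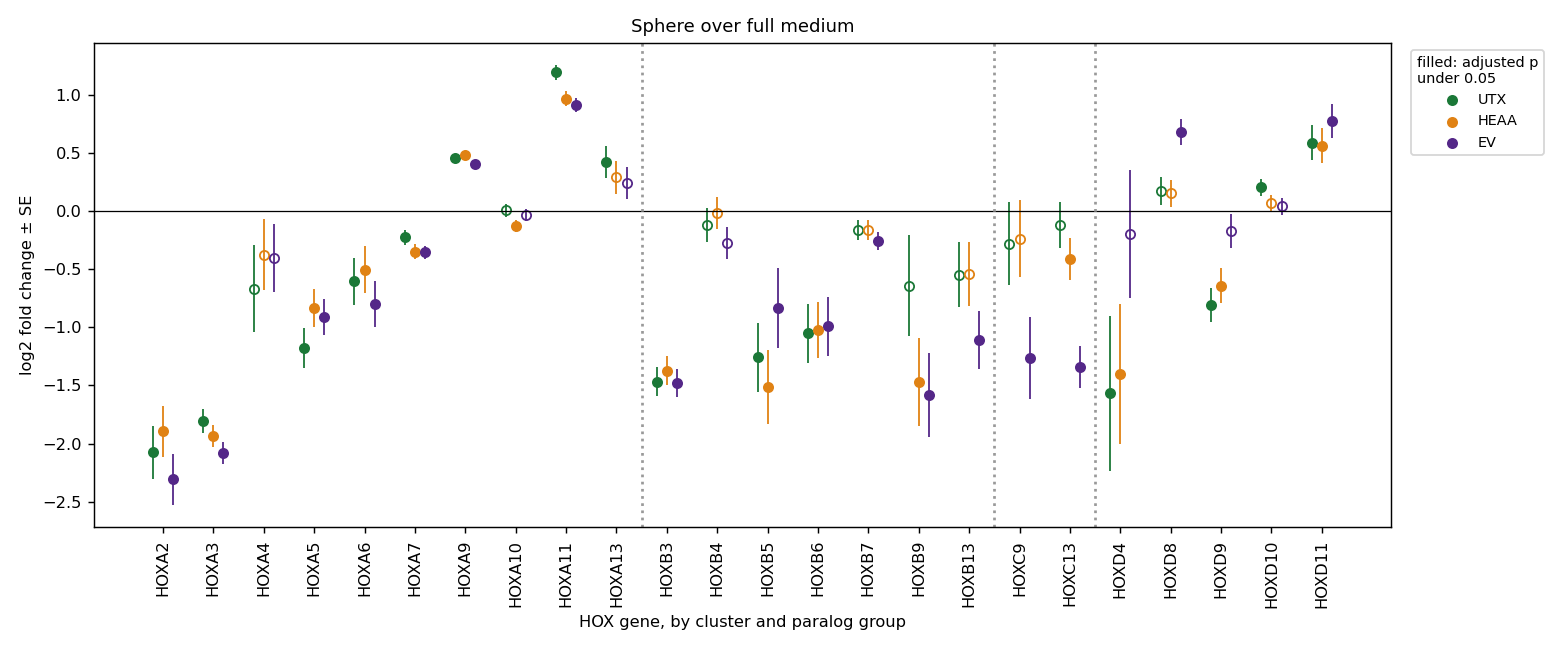
Log2 fold change of sphere over full medium (y, with SE bars) for 24 of the 25 HOX genes tested (x, by cluster and paralog group) in UTX, HEAA and EV cells, filled where the adjusted p is under 0.05. In EV cells HOXA2 is lowest at -2.31 and HOXA11 highest at 0.91, with HOXA5 and HOXA6 below HOXA4 and HOXA10 below HOXA9.

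Position along HOXA and the medium difference ran together. Spearman's rho between paralog number and log2 fold change over the 11 HOXA genes was 0.75 in UTX cells, 0.73 in HEAA cells and 0.90 in EV cells, as a description over genes that share libraries and partly share exons. Over the 7 tested HOXB genes rho was 0.36, 0.04 and -0.18 in the same order, and HOXB9 and HOXB13, though posterior, were lower in sphere medium in EV cells (log2 fold changes of -1.58 ± 0.36 and -1.11 ± 0.25, both genes below 1 CPM in these groups). Over the 5 tested HOXD genes it was 0.90, 0.70 and 0.70. In EV cells HOXA2, HOXA3 and 3 of the 4 central HOXA genes were lower in sphere medium, and 2 of the 4 posterior ones were higher.

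In UTX cells in sphere medium HOXA2 and HOXA3 made up 1.67% to 2.06% of the HOXA2 to HOXA13 counts of a library, against 7.40% to 8.38% in UTX cells in full medium. In EV cells the share was 1.47% to 1.63% in sphere medium, against 7.29% to 7.82% in full medium. The share of HOXA9 to HOXA13 was 87.5% to 88.7% in UTX cells in sphere medium, against 76.4% to 77.4% in full medium, and 88.2% to 88.6% in EV cells in sphere medium, against 76.6% to 77.4% in full medium. The ranges of the 2 media did not overlap. In the second experiment, all in full medium, the share of HOXA9 to HOXA13 lay between 71.9% and 76.1% in all libraries.

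**Figure D3:**
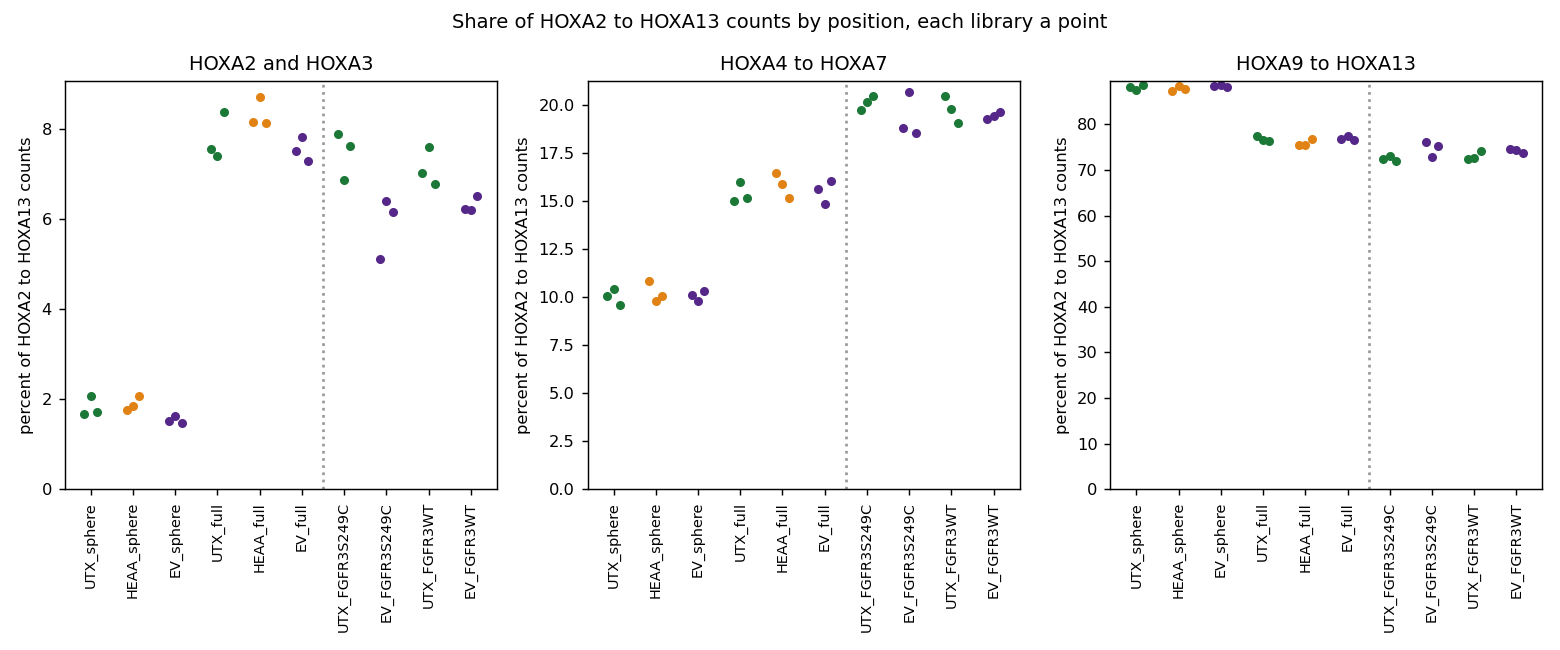
Percent of the HOXA2 to HOXA13 counts of each library (points, 3 per group) that fell on HOXA2 and HOXA3, HOXA4 to HOXA7 and HOXA9 to HOXA13 (panels), for the 10 groups, with the experiments parted by a dotted line. The sphere groups lie at 1.47% to 2.07% in the first panel and the full-medium groups of the first experiment at 7.29% to 8.69%.

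In the HOXD cluster HOXD11, which patterns the forearm and kidney, had 3.54, 4.35 and 3.92 CPM in UTX cells in sphere medium, against 2.18, 2.82 and 2.89 CPM in full medium, a log2 fold change of 0.59 ± 0.15 (adjusted p = 0.00173). In EV cells it was 0.77 ± 0.14 (7.41e-05). Its neighbour HOXD10, which shares exon bases with it, was called only in UTX cells, as higher in sphere medium. That call was lost in 2 of 10 alternatives (adjusted p from 0.00231 to 0.101). HOXD8 and HOXD9, beyond HOXD10, differed by construct. HOXD8 was higher in sphere medium in EV cells, by 0.68 ± 0.11 (1.07e-05), with 0.17 ± 0.12 in UTX cells. HOXD9 was lower in UTX cells, at -0.81 ± 0.15 (4.28e-05), with -0.17 ± 0.15 in EV cells. In HEAA cells HOXD9 was called lower too, with 1.084 CPM per kb in sphere and 1.693 CPM per kb in full medium. This HEAA call was kept in all 10 alternatives (adjusted p from 0.000401 to 0.01175). HOXC13, a regulator of hair and nail keratins, had 0.968, 0.8004 and 0.680 CPM in EV cells in sphere medium, against 2.41, 1.96 and 1.89 CPM in EV cells in full medium, a log2 fold change of -1.34 ± 0.18 (9.39e-07). In UTX cells its groups overlapped, with 0.939 to 1.19 CPM in sphere medium and 0.974 to 1.23 CPM in full medium. HOXC13 overlaps exons of HOXC13-AS on the opposite strand, and reads of the 2 cannot be told apart here.

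Some markers of cell type differed between the media as well. The 7 epithelial markers summed to 6438 to 6698 CPM in UTX cells in sphere medium, against 3709 to 3860 CPM in full medium, and to 14370 to 15410 CPM in EV cells in sphere medium, against 5472 to 5697 CPM in full medium. Of the 7, 3 were higher and 3 lower in UTX cells, where 70.5% of all genes were called, and 3 higher and 4 lower in EV cells, where 65.5% were. KRT5 averaged 3310 CPM in UTX cells in sphere medium, against 167 CPM in full medium, and 12520 CPM in EV cells in sphere medium, against 2287 CPM in full medium. The 5 fibroblast markers summed to 20.8 to 22.8 CPM in UTX cells in sphere medium, against 8.49 to 9.98 CPM in full medium, and to 11.0 to 12.8 CPM in EV cells in sphere medium, against 5.31 to 6.92 CPM in full medium, of which COL1A1 was the bulk. The 4 leukocyte markers summed to 1.07 to 2.24 CPM in UTX cells in sphere medium, against 0.291 to 0.358 CPM in full medium, and to 2.46 to 2.57 CPM in EV cells in sphere medium, against 0.720 to 1.03 CPM in full medium. The 3 endothelial markers summed to 4.10 to 4.35 CPM in UTX cells in sphere medium, against 2.67 to 3.49 CPM in full medium, while in EV cells the media overlapped, at 3.34 to 3.64 CPM in sphere medium and 3.01 to 3.99 CPM in full medium. Their part in the HOX differences was not tested. Totals per library overlapped between the media. Without replicate 2 of EV cells in sphere medium, 17 HOX genes were called in EV cells in place of 18, all of them among the 18. In HEAA cells 12 to 14 were called whichever library was left out, in place of 17, and in UTX cells 13 to 15, in place of 15. Calls kept in every alternative were 11 of 15 in UTX cells, 12 of 17 in HEAA cells and 17 of 18 in EV cells.

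UTX against EV cells compares HOX expression with UTX expressed from the vector to that in cells that lack working UTX. KDM6A was at 568 CPM or more in these UTX cells and at 17.9 CPM or less in these EV cells. In full medium 3 of 25 members were higher and 10 lower, where 57.7% of all genes were called, 28.4% higher and 29.2% lower. In sphere medium 3 were higher and 4 lower, where 48.4% of all genes were called, 22.8% higher and 25.6% lower. The median log2 fold change over the HOX genes was -0.17 in full and -0.06 in sphere medium, against 0.04 and -0.01 over all genes. Without replicate 2 of EV cells in sphere medium 8 members were called there.

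HOXA4 was lower with UTX in both media. It had 0.676, 0.897 and 0.172 CPM in UTX cells in sphere medium, against 1.54, 1.22 and 1.26 CPM in EV cells, a log2 fold change of -1.19 ± 0.36 (adjusted p = 0.00887). In full medium it had 0.872, 0.477 and 1.38 CPM in UTX cells, against 1.98, 1.67 and 1.69 CPM in EV cells, -0.93 ± 0.31 (0.0130). The UTX replicates spread widely but did not overlap the EV replicates. Single libraries decide these calls: without UTX replicate 3 the sphere value was -0.77 with an adjusted p of 0.0608, the highest over its 10 alternatives (lowest 0.000441), and without UTX replicate 2 the full-medium value was -0.66 with 0.0743, the highest over its 10 (lowest 0.000436). In the second experiment HOXA4 was not called with UTX. It had 0.861 CPM per kb in UTX and 1.03 in EV cells with wild type FGFR3, and 1.22 and 1.11 with FGFR3 S249C. HOXA4 overlaps exons of HOXA-AS2 and HOXA-AS3 on the opposite strand.

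HOXB5 had 1.60, 1.35 and 1.54 CPM in UTX cells in full medium, against 0.673, 0.528 and 0.769 CPM in EV cells, a log2 fold change of 1.18 ± 0.28 (adjusted p = 0.000991) with no overlap. In the second experiment HOXB5 was not called with UTX. It had 1.73 CPM per kb in UTX and 1.84 in EV cells with wild type FGFR3, and 1.73 and 1.88 with FGFR3 S249C. HOXB7, the highest HOXB gene, was lower with UTX in both media, with log2 fold changes of -0.29 ± 0.08 (0.00656) in sphere and -0.39 ± 0.08 (0.000179) in full medium. HOXA9 was lower with UTX, with log2 fold changes of -0.17 ± 0.03 (0.000257) in sphere and -0.21 ± 0.03 (1.36e-05) in full medium, where the SDs of these groups were 1.36 to 2.52 CPM around means of 87.8 to 135 CPM. HOXA9 was also lower with HEAA, at -0.28 ± 0.03 (4.59e-07) in full medium, and was called lower in sphere medium. Both HEAA calls were kept in all 10 alternatives. HOXD10, a limb patterning gene, had 12.4, 12.3 and 12.3 CPM in UTX cells in sphere medium, against 8.65, 9.67 and 9.61 CPM in EV cells, a log2 fold change of 0.40 ± 0.07 (0.000102), and 0.24 ± 0.07 (0.00709) in full medium. Without UTX replicate 3 the full-medium value of HOXD10 was 0.16 with an adjusted p of 0.0868, the highest over its 10 alternatives (lowest 0.00449). HOXA13, which patterns digits and the lower urogenital tract, had 5.05, 4.27 and 4.13 CPM in UTX cells in sphere medium, against 3.84, 2.89 and 2.98 CPM in EV cells, 0.47 ± 0.14 (0.00663). Without UTX replicate 1 it was 0.37 with an adjusted p of 0.0567, the highest over its 10 alternatives (lowest 0.00167). HOXA13 overlaps exons of HOTTIP on the opposite strand.

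The interaction of UTX with the medium, which tests whether the UTX effect differs between the media, passed the threshold for 5 of 25 members, 3 upward and 2 downward, where 37.3% of all genes did, 21.1% upward and 16.2% downward. Among these were HOXC13 (1.22 ± 0.27, adjusted p = 0.000894), HOXD9 (-0.64 ± 0.21, 0.0190), HOXD8 (-0.51 ± 0.16, 0.0175) and HOXA11 (0.28 ± 0.09, 0.0146), a positive value meaning a higher UTX effect in sphere medium. HOXC13 had 1.19, 0.939 and 0.947 CPM in UTX cells in sphere medium, against 0.968, 0.8004 and 0.680 CPM in EV cells, and 1.16, 1.23 and 0.974 CPM in UTX cells in full medium, against 2.41, 1.96 and 1.89 CPM in EV cells. It was lower with UTX in full medium, at -0.89 ± 0.17 (0.000124). HOXD8 had 4.06, 3.42 and 3.70 CPM in UTX cells in sphere medium, against 7.25, 5.67 and 6.25 CPM in EV cells, a log2 fold change of -0.78 ± 0.11 (6.56e-06), and HOXD9 had 3.75, 4.37 and 4.40 CPM in UTX cells in full medium, against 2.91, 2.93 and 2.38 CPM in EV cells, 0.61 ± 0.14 (0.000623).

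The calls for HOXD9, HOXD8 and HOXA11 in this interaction depended on single libraries. Without UTX full-medium replicate 3 the count was 3, and the adjusted p was 0.0623 for HOXD8 and 0.0537 for HOXA11. For HOXD8 it was 0.0571 without EV sphere replicate 1 and 0.0587 without UTX sphere replicate 2 (0.00757 to 0.114 over its 16 alternatives). For HOXD9 it was 0.0612 without EV full-medium replicate 3, 0.0514 without EV sphere replicate 2 and 0.0647 without UTX sphere replicate 1 (0.0114 to 0.102 over 16). For HOXA11 it ran from 0.000946 to 0.0537.

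HEAA cells were set against the same EV libraries, so the UTX and HEAA comparisons are not independent and are given side by side. In full medium 9 of 25 members were called with HEAA (1 higher, 8 lower), where 48.5% of all genes were, 23.2% higher and 25.3% lower. In sphere medium it was 7 (1 higher, 6 lower), where 41.4% of all genes were, 19.9% higher and 21.5% lower. HOXD8 in sphere medium was -0.59 ± 0.11 with HEAA and -0.78 ± 0.11 with UTX, and HOXB7 in full medium was -0.32 ± 0.08 and -0.39 ± 0.08. HOXA11 was lower with HEAA in both media, at -0.33 ± 0.06 in sphere and -0.38 ± 0.07 in full medium, where UTX had -0.10 (not past the threshold) and -0.38 ± 0.07. HOXA10 in sphere medium was -0.34 ± 0.05 (adjusted p = 2.31e-05) with HEAA, with 27.6, 30.2 and 31.2 CPM in HEAA cells, against 37.9, 38.3 and 36.2 CPM in EV cells. The interaction of HEAA with the medium, added after the data had been seen, was called for 3 of 25 members, among them HOXC13 (0.93 ± 0.25, adjusted p = 0.00714) and HOXD8 (-0.53 ± 0.16, 0.0131), where 33.0% of all genes were called, 18.7% upward and 14.3% downward.

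Several HEAA calls were lost when 1 library was left out. HOXB5 in full medium (0.78 ± 0.29, adjusted p = 0.0303) had an adjusted p of 0.0717 to 0.137 without EV replicate 1 or 2 or HEAA replicate 1 or 3 (0.0283 to 0.137 over its 10 alternatives). HOXC13 in full medium (-0.44 ± 0.16, 0.0311) had 0.113 without EV replicate 1 and 0.0752 without HEAA replicate 2 (0.0244 to 0.146 over 10). HOXB7 in sphere medium (-0.22 ± 0.08, 0.0336) had 0.0846 to 0.218 without EV replicate 1 or 2 or HEAA replicate 2 or 3 (0.0188 to 0.218 over 10). HOXA7 in sphere medium (-0.22 ± 0.06, 0.00787) had 0.0507 to 0.0612 without EV replicate 1 or 3 or HEAA replicate 2 (0.00895 to 0.0612 over 10). The HOXD8 interaction had 0.0508 to 0.0693 without EV full-medium replicate 3, HEAA full-medium replicate 1, EV sphere replicate 1 or HEAA sphere replicate 2 (0.00730 to 0.0742 over 16).

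UTX against HEAA cells compares wild type with mutant directly, though KDM6A itself was higher in HEAA cells in each medium. In sphere medium 4 of 25 members were called, all higher in UTX cells, where 20.0% of all genes were called, 8.87% higher and 11.2% lower. HOXA13 had 5.05, 4.27 and 4.13 CPM in UTX cells, against 2.83, 3.23 and 3.31 CPM in HEAA cells, a log2 fold change of 0.53 ± 0.14 (adjusted p = 0.00868) with no overlap. HOXA10 had 34.3, 33.7 and 37.8 CPM in UTX cells, against 27.6, 30.2 and 31.2 CPM in HEAA cells, 0.25 ± 0.06 (0.00258). HOXA11 (0.22 ± 0.06, 0.0101) and HOXD10 (0.23 ± 0.07, 0.0288) were the other two, so 4 posterior genes were higher in UTX than in HEAA cells. The count was 2 without UTX replicate 1 or HEAA replicate 2. The adjusted p was 0.0705 for HOXA13 without UTX replicate 1 and 0.0598 without HEAA replicate 1 (0.00938 to 0.0705 over 10 alternatives), 0.105 for HOXA11 without UTX replicate 2 and 0.0503 without HEAA replicate 2 (0.00491 to 0.105), and 0.0916 to 0.136 for HOXD10 without any 1 UTX replicate or HEAA replicate 2 or 3 (0.0334 to 0.136).

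In full medium 2 of 25 were called, both higher, where 21.4% of all genes were, 8.95% higher and 12.4% lower. These were HOXD9, with 3.75, 4.37 and 4.40 CPM in UTX cells, against 2.90, 3.81 and 2.80 CPM in HEAA cells (0.40 ± 0.14, adjusted p = 0.0421), and HOXB3 (0.31 ± 0.11, 0.0482). The HOXD9 groups overlapped. Its adjusted p was 0.108 to 0.171 without UTX replicate 2 or 3 or HEAA replicate 1 or 3 (0.00913 to 0.171 over 10 alternatives), and that of HOXB3 was 0.0584 to 0.191 without any 1 UTX replicate or HEAA replicate 2 or 3 (0.0290 to 0.191). The count was 1 or lower without UTX replicate 1, 2 or 3 or HEAA replicate 1 or 3.

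**Figure D4:**
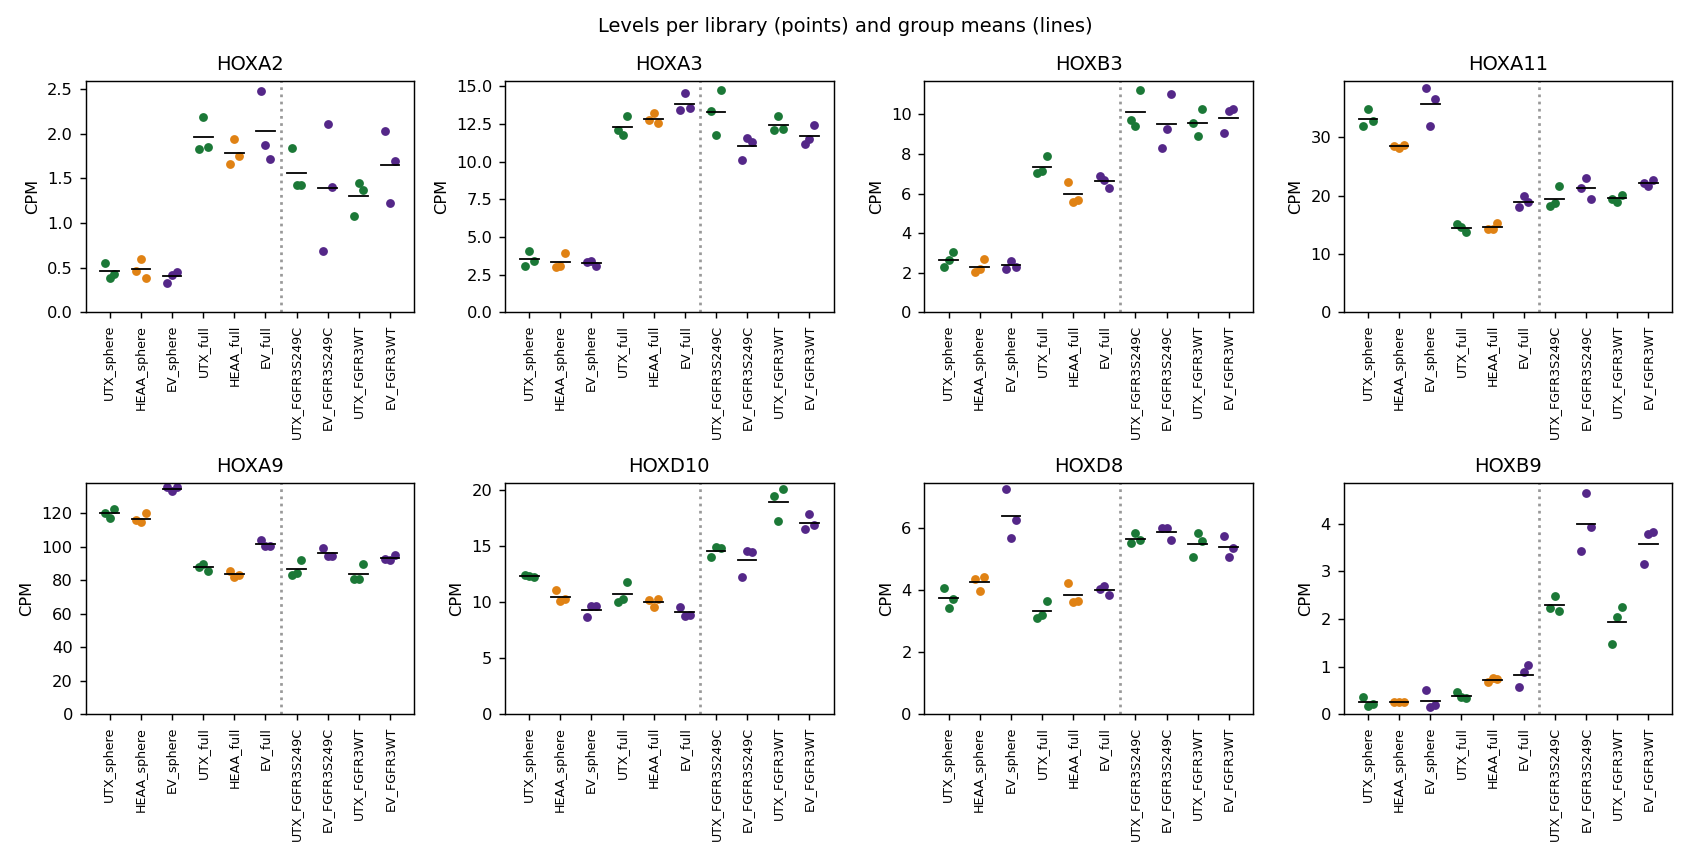
CPM of 8 HOX genes (panels) in each library (points), with the mean of each group (line), for the 10 groups, the experiments parted by a dotted line and scaled apart. HOXA2, HOXA3 and HOXB3 are low and HOXA11 is high in the 3 sphere groups.

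The second experiment asks for the UTX effect in cells with added FGFR3, in full medium. With FGFR3 S249C 7 of 26 members were called in UTX against EV cells (2 higher, 5 lower), where 21.5% of all 19399 genes tested were, 12.9% higher and 8.62% lower. With wild type FGFR3 3 were called, all lower, where 15.1% of all genes were called, 9.06% higher and 6.01% lower. HOXB9 was lower in both. It had 2.24, 2.48 and 2.17 CPM in UTX cells with FGFR3 S249C, against 3.43, 4.64 and 3.93 CPM in EV cells, a log2 fold change of -0.80 ± 0.16 (adjusted p = 0.00232). With wild type FGFR3 it had 1.47, 2.05 and 2.26 CPM in UTX cells, against 3.15, 3.78 and 3.83 CPM in EV cells, -0.89 ± 0.17 (0.00199). The groups did not overlap in either background, and the HOXB9 calls held under all 10 alternatives of each comparison. In the first experiment, where its mean stayed below 1 CPM and which is named here after its values were seen, HOXB9 in full medium had 0.465, 0.358 and 0.346 CPM in UTX cells, against 0.567, 0.879 and 1.04 CPM in EV cells, a log2 fold change of -1.09 ± 0.34 (0.00881). Without EV replicate 3 it was -0.90 with an adjusted p of 0.0597, the highest over its 10 alternatives (lowest 0.00377).

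HOXA13 had 4.58, 4.24 and 3.74 CPM in UTX cells with wild type FGFR3, against 6.25, 5.20 and 6.31 CPM in EV cells, a log2 fold change of -0.50 ± 0.12 (adjusted p = 0.00896). With FGFR3 S249C it was -0.30 ± 0.11 and did not pass (0.0726). These values are on the other side of 0 from those of the first experiment, 0.47 in sphere and 0.29 (adjusted p = 0.0786) in full medium, and the difference between the experiments was not tested. HOXA5 was lower with UTX in both backgrounds, with 5.80, 5.69 and 6.84 CPM in UTX cells with FGFR3 S249C, against 7.21, 8.01 and 7.45 CPM in EV cells (-0.31 ± 0.10, 0.0367), and -0.33 ± 0.10 (0.0428) with wild type FGFR3. Without replicate 3 of UTX cells with wild type FGFR3 HOXA13 had an adjusted p of 0.0538 (0.00548 to 0.0538 over 10 alternatives). HOXA5 with wild type FGFR3 had 0.0748 to 0.139 without EV replicate 1, 2 or 3 or UTX replicate 1 or 2 (0.0381 to 0.139 over 10).

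With FGFR3 S249C, HOXA3 (0.27 ± 0.09, adjusted p = 0.0390), HOXA9 (-0.15 ± 0.05, 0.0449) and HOXB6 (-0.39 ± 0.13, 0.0453) were also called, as was HOXD13, whose mutations cause synpolydactyly, at under 1 CPM: 0.0367, 0.255 and 0.143 CPM in UTX cells, against 0.725, 0.317 and 0.680 CPM in EV cells. Each of these calls was lost when some single library was left out. HOXB6 was also lost with the replicate block (adjusted p = 0.0663), and with DESeq2 it had 0.0528, HOXA3 0.0656 and HOXA5 0.0908. Over their 10 alternatives the adjusted p ran from 0.0126 to 0.152 for HOXA3, 0.00688 to 0.194 for HOXA9, 0.0319 to 0.144 for HOXB6 and 0.00940 to 0.138 for HOXA5, and over 9 alternatives from 0.0144 to 0.0856 for HOXD13. Without EV replicate 1, which stood apart, it was 0.152 for HOXA3, 0.145 for HOXA9 and 0.0845 for HOXD13, and 3 members were called. The count was 4, 2, 1 and 4 without EV replicate 2, EV replicate 3, UTX replicate 1 and UTX replicate 2, in that order, and 8 without UTX replicate 3, which stood apart too.

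**Figure D5:**
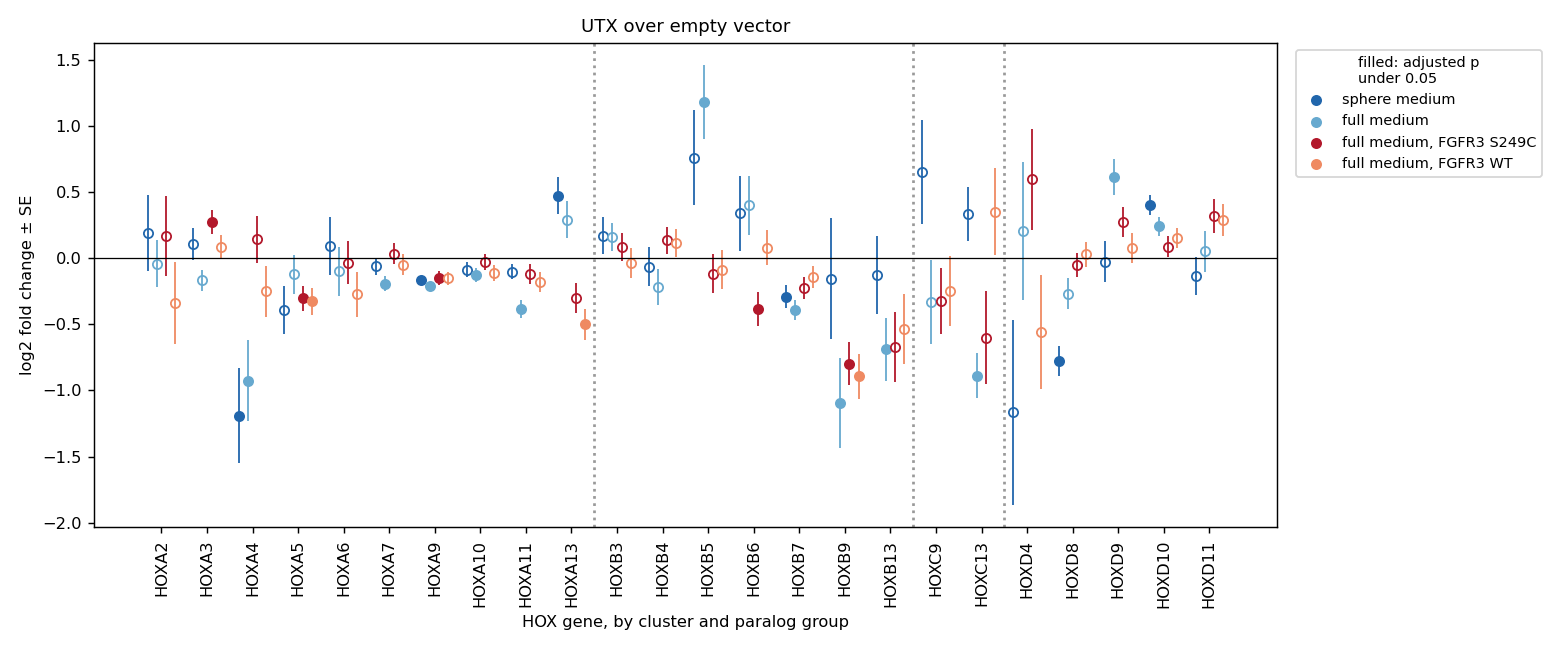
Log2 fold change of UTX over EV cells (y, with SE bars) for the HOX genes (x, by cluster and paralog group; some left out) in sphere medium, full medium, and full medium with FGFR3 S249C or wild type FGFR3, filled where the adjusted p is under 0.05. HOXD8 is at -0.78 in sphere medium, and HOXB9 lies at or below -0.80 in the 3 full-medium comparisons.

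The difference of the UTX effect between FGFR3 S249C and wild type FGFR3 was called by edgeR's quasi-likelihood test for 0 of 26 members, where 0.686% of all genes were called, 0.572% upward and 0.113% downward. At an unadjusted p under 0.05 it was 1 member, HOXB6 (-0.47 ± 0.19, adjusted p = 0.376), and DESeq2 called 0. FGFR3 S249C against wild type FGFR3 itself was called for 1 of 26 members in UTX cells, lower with S249C, where 3.05% of all genes were called, 1.71% higher and 1.34% lower. In EV cells 2 were called, both lower, where 10.8% of all genes were, 4.31% higher and 6.45% lower. HOXD10 had 13.99, 14.9 and 14.8 CPM in UTX cells with FGFR3 S249C, against 19.5, 17.3 and 20.1 CPM with wild type FGFR3, a log2 fold change of -0.38 ± 0.08 (adjusted p = 0.0134). In EV cells it had 12.3, 14.5 and 14.4 CPM with FGFR3 S249C, against 16.5, 17.9 and 16.9 CPM with wild type FGFR3, -0.32 ± 0.08 (0.0183). The groups did not overlap in either set of cells. HOXD11 had 3.47, 3.61 and 3.89 CPM in EV cells with FGFR3 S249C, against 4.27, 5.69 and 5.32 CPM with wild type FGFR3, -0.48 ± 0.13 (0.0237). HOXD10 and HOXD11 share exon bases on the same strand, so their calls may not be independent.

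Leaving out 1 library ended each of these FGFR3 calls. In EV cells the adjusted p of HOXD10 was 0.0816 without wild type replicate 2, 0.0536 without wild type replicate 3 and 0.0761 without S249C replicate 1 (0.0155 to 0.0816 over 10 alternatives), and that of HOXD11 was 0.0615 to 0.105 without the same libraries or S249C replicate 2 (0.00972 to 0.105). In UTX cells that of HOXD10 was 0.0731 without wild type replicate 1, 0.0822 without wild type replicate 3 and 0.0620 without S249C replicate 1 (0.00498 to 0.0822). The direction was the same in each case.

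Several noncoding RNAs of the clusters differed between the media. Of 12 tested from a list of 21, 3 were higher and 6 lower in sphere medium in UTX cells, 3 and 8 in HEAA cells and 3 and 6 in EV cells. That is 9, 11 and 9 of 12, where 70.5%, 70.8% and 65.5% of all genes were called, as given above. HOXA-AS2, antisense to HOXA3 and HOXA4, had 0.438, 0.897 and 0.559 CPM in UTX cells in sphere medium, against 12.4, 13.7 and 14.5 CPM in full medium, a log2 fold change of -4.42 ± 0.16, and -4.82 ± 0.15 in EV cells. HOTAIRM1, at the anterior end of HOXA, was at -2.02 ± 0.10 in UTX cells and -2.05 ± 0.09 in EV cells. HOXC13-AS was at -3.03 ± 0.23 in UTX cells and -2.96 ± 0.21 in EV cells. HAGLROS, of the HOXD cluster, was higher in EV cells in sphere medium, at 1.52 ± 0.26. With UTX in sphere medium 1 of the 12 was higher and 3 lower, where 48.4% of all genes were called. HOXA10-AS at 0.52 ± 0.09 and HOXA11-AS at -0.47 ± 0.10 were among them. With UTX in full medium 2 of the 12 were lower, where 57.7% of all genes were called in either direction.

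TALE proteins are the DNA-binding partners of HOX proteins. All 9 listed were tested, and with the medium 4 were higher and 2 lower in UTX cells, 5 and 2 in HEAA cells and 5 and 2 in EV cells, or 6, 7 and 7 of 9 against the same 70.5%, 70.8% and 65.5% of all genes. MEIS2 had 9.38, 8.28 and 9.65 CPM in EV cells in sphere medium, against 20.1, 18.9 and 20.9 CPM in full medium (-1.13 ± 0.07), MEIS1 was at -0.61 ± 0.07, MEIS3 at 1.55 ± 0.13 and PKNOX2 at 1.69 ± 0.11. PKNOX2 was also higher with UTX in all 4 settings. It had 8.35, 9.22 and 9.25 CPM in UTX cells in sphere medium, against 5.04, 5.60 and 4.60 CPM in EV cells (0.82 ± 0.09), and 9.79, 10.6 and 9.93 CPM in UTX cells in full medium, against 1.59, 1.67 and 1.46 CPM in EV cells (2.68 ± 0.10). With FGFR3 S249C the log2 fold change was 2.51 ± 0.29 and with wild type FGFR3 1.84 ± 0.28. In HEAA cells PKNOX2 had 8.68, 9.33 and 8.49 CPM in full medium.

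Of the 12 Polycomb repressive complex PRC1 subunits, all tested, 5 were higher and 6 lower in sphere medium in UTX cells, 4 and 5 in HEAA cells and 3 and 3 in EV cells, or 11, 9 and 6 of 12 against 70.5%, 70.8% and 65.5% of all genes. CBX6 had 25.4, 23.9 and 24.2 CPM in EV cells in sphere medium, against 104, 106 and 110 CPM in full medium (-2.12 ± 0.05), and PHC1 (-1.61 ± 0.06) and PCGF2 (-1.09 ± 0.07) were lower as well, with CBX2 higher (0.58 ± 0.06). With UTX CBX2 was lower in all 4 settings, at -0.68 ± 0.06 in sphere medium, -0.73 ± 0.06 in full medium, -0.33 ± 0.05 with FGFR3 S249C and -0.18 ± 0.05 with wild type FGFR3. Of 7 listed regulators of HOX expression 4 were tested. PSIP1, which tethers the KMT2A complex to chromatin, was lower in sphere medium in EV cells (-0.81 ± 0.04) and with UTX in full medium (-0.41 ± 0.04).

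Of the genes that flank the clusters, 10 were tested from a list of 17. Of these 3 were higher and 5 lower in sphere medium in UTX cells, 3 and 5 in HEAA cells and 4 and 5 in EV cells, or 8, 8 and 9 of 10 against 70.5%, 70.8% and 65.5% of all genes. MTX2, beside HOXD, was higher in EV cells in sphere medium (0.89 ± 0.04) and SNX10, near HOXA, lower (-0.87 ± 0.10). CALCOCO1, beside HOXC, had 49.9, 49.6 and 52.8 CPM in UTX cells in full medium, against 11.51, 11.9 and 12.98 CPM in EV cells (2.06 ± 0.07), and was higher with UTX in the other 3 settings too, while most HOXC genes stayed near 0.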

How the data were processed

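RNA-seq of 30 libraries was deposited as 2 tables of estimated counts per gene, unscaled and in whole numbers. The authors made these estimated counts with Salmon 0.8, and DESeq2, hg19 and GRCh37 are named too, per the submitters' processing notes. Not given in the sources used here are the annotation release, the strand setting and the filter behind the second table, which lists 20073 IDs against 58288. Each table was fitted apart in R 4.3.3 with edgeR 4.0.16 (filterByExpr by group, TMM factors, quasi-likelihood test, Benjamini-Hochberg adjustment over all 19629 or 19399 genes tested, threshold 0.05), after a check on simulated data. Levels are CPM on TMM-scaled library sizes, and per kb of GENCODE v29 exon length. Fold changes are log2 with SE. Alternatives were DESeq2 1.42.0 and its size factors, no low-count filter, a replicate block and leaving out each library. The HOX genes and the gene lists were chosen with earlier results of these data known. In each comparison up to 6 members past the threshold with a group mean of 1 CPM or more were named, and up to 4 genes of each list; members named beyond that were chosen after their values were seen. Same-numbered replicates did not deviate together (in the first experiment 0 of 45 pairs correlated over 0.1, in the second 1 of 18), so the numbers were not taken to pair samples. Intervals and floors cover counting error only. Some genes of the lists are not reported here, and shares of counts within HOXA cover HOXA2 to HOXA13.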

Additional observations from a re-analysis of the deposited data

Results flagged for a closer look

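The effect of a construct differed between sphere and full medium for several HOX genes, by the test of the difference itself. The value is the log2 fold change against EV cells in sphere medium minus that in full medium. For UTX it was 1.222 for HOXC13, -0.6368 for HOXD9, -0.5089 for HOXD8 and 0.2815 for HOXA11. For HEAA it was 0.9306 for HOXC13 and -0.5282 for HOXD8. The UTX and HEAA values share the same 6 EV libraries. For UTX 5 of 25 HOX genes were called, against 37.3% of all genes, and for HEAA 3 of 25, against 33.0%. Over 16 alternatives the UTX call was lost in 5 for HOXD9, 5 for HOXD8 and 1 for HOXA11. The HEAA call of HOXD8 was lost in 5 of 16, and the HOXC13 calls were kept in all.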

How the results depend on the processing

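Of 728 values of HOX genes named under the rule under the alternatives, 620 kept their direction and call, 108 lost the call and 0 changed direction. The 18 values named for the medium comparison under the rule kept theirs in every alternative, but beyond them other calls of that comparison were lost, and leaving out 1 library gave 12 to 14 in HEAA cells in place of 17. Of 178 counts, 151 stayed within 1.5 times the reported one. For UTX against HEAA cells in full medium, where 2 were called, the count was 1 with DESeq2 size factors, 1 without the low-count filter, 1 with the replicate block and 0 with DESeq2, and 0 to 2 when 1 library was left out. Leaving out 1 library gave 2 to 3 for UTX against HEAA cells in sphere medium, 3 to 5 for UTX by medium, 1 to 8 for UTX against EV cells with FGFR3 S249C, 0 to 2 for FGFR3 S249C against wild type in EV cells and 0 to 1 in UTX cells. UTX by medium gave 3 without the filter and 3 with DESeq2, and UTX against EV cells with FGFR3 S249C gave 2 with DESeq2. The cause was not tested. The replicate block moved no other count past 1.5 times. Genes under about 1 CPM rest on few counts.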
